A study of Mus musculus with 16 samples.

Results

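The genes described here encode growth cone and axon growth proteins: Gap43, Marcks, Marcksl1, Stmn1, Stmn2, Crmp1, Dpysl2 and Dpysl3. Their probe sets were those whose platform annotation gave exactly 1 gene symbol, that symbol being 1 of these genes. This gave 11 probe sets for 8 genes, of 10833 single-symbol probe sets covering 8251 genes. Total RNA was hybridised to 1-colour oligonucleotide arrays, and the study asked how far such measurements repeat within a laboratory and between laboratories. Retina came from adult C57/B6 mice, in a pool of 350 animals, on 5 arrays at a first site and 3 at another site, which the labels call site 2. Cortex, the tissue it was set against, came from mice at postnatal day 1, in a pool of 19 animals, likewise on 5 arrays and 3 arrays. The sample descriptions give the cortex donors as C57/B6 and the series design text as Swiss-Webster, so tissue, age and possibly strain cannot be told apart. No treatment or allele is given for either tissue, and each was represented by aliquots of a single RNA pool. The p-values therefore measure the spread between arrays and not that between animals, and the pool sizes are stated for the first site's samples.

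The growth cone is the moving tip of a growing axon. GAP-43 and the MARCKS proteins sit at the inner face of its membrane, where protein kinase C phosphorylates them and calmodulin binds them, and they act on the actin beneath. Stathmins bind tubulin dimers and promote microtubule disassembly until kinases phosphorylate them. The collapsin response mediator proteins (CRMPs), encoded by Crmp1 and the Dpysl genes, bind tubulin and act in the response of the growth cone to semaphorins. Many of these genes are expressed strongly in young neurons that extend axons. In the retina, ganglion cells are the neurons whose axons leave the eye.

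Levels are given as scaled intensities, in which the median probe set of each array is set to 100, and a level is compared only with the same probe set on other arrays. Of the 11 probe sets, 9 lay above the level of control probe sets without a target on all 16 arrays. The Stmn1 probe set 97910_at was at that level on all 16 arrays. Of the Stmn2 probe sets, 95668_at was above it on 3 of 5 retina and 4 of 5 cortex arrays at the first site, and on 1 of 3 retina and 2 of 3 cortex arrays at site 2. The array medians of the deposited intensities ran from 45.7 to 216. The lowest median belonged to replicate 2 of the site 2 cortex arrays, which stood apart in its RNA controls. Its ratio of the 3′ to the 5′ Gapdh probe set was 1.66, against 0.765 to 0.952 on the other 15 arrays. Its 3′ to 5′ ratio for actin was 1.85, against 1.04 to 1.26 on the other 7 cortex arrays. The 8 retina arrays had actin ratios from 1.499 to 1.793, all above those 7 cortex arrays, so this ratio moved with the tissue, and its part in the tissue differences was not tested. Member differences at site 2, and the list counts given for site 2, are shown with and without replicate 2 of cortex. For some marker lists the first site alone is given.

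Most of these genes were lower in adult retina than in newborn cortex. At the first site 8 of the 11 probe sets, standing for 7 of the 8 genes, were lower in retina at an adjusted p under 0.05 and none was higher. Over all 12422 probe sets tested, 47.1% were called, 25.2% lower and 21.9% higher. The fall was between 3.60-fold for Stmn1 and 11.0-fold for Gap43, as the ratio of mean scaled intensities, and Dpysl2 was the gene that did not pass. Every retina array read below every cortex array for 8 probe sets, against 20.4% of all probe sets tested. All 8 were at least 2-fold lower, against 7.95% of all probe sets. The median difference of all 11 probe sets was -2.29 on the log2 scale, beside -0.06 over all probe sets tested. For the 9 above the no-target level it was -2.64. In bulk RNA, fewer cells of a type and less RNA per cell cannot be told apart.

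**Figure D1:**
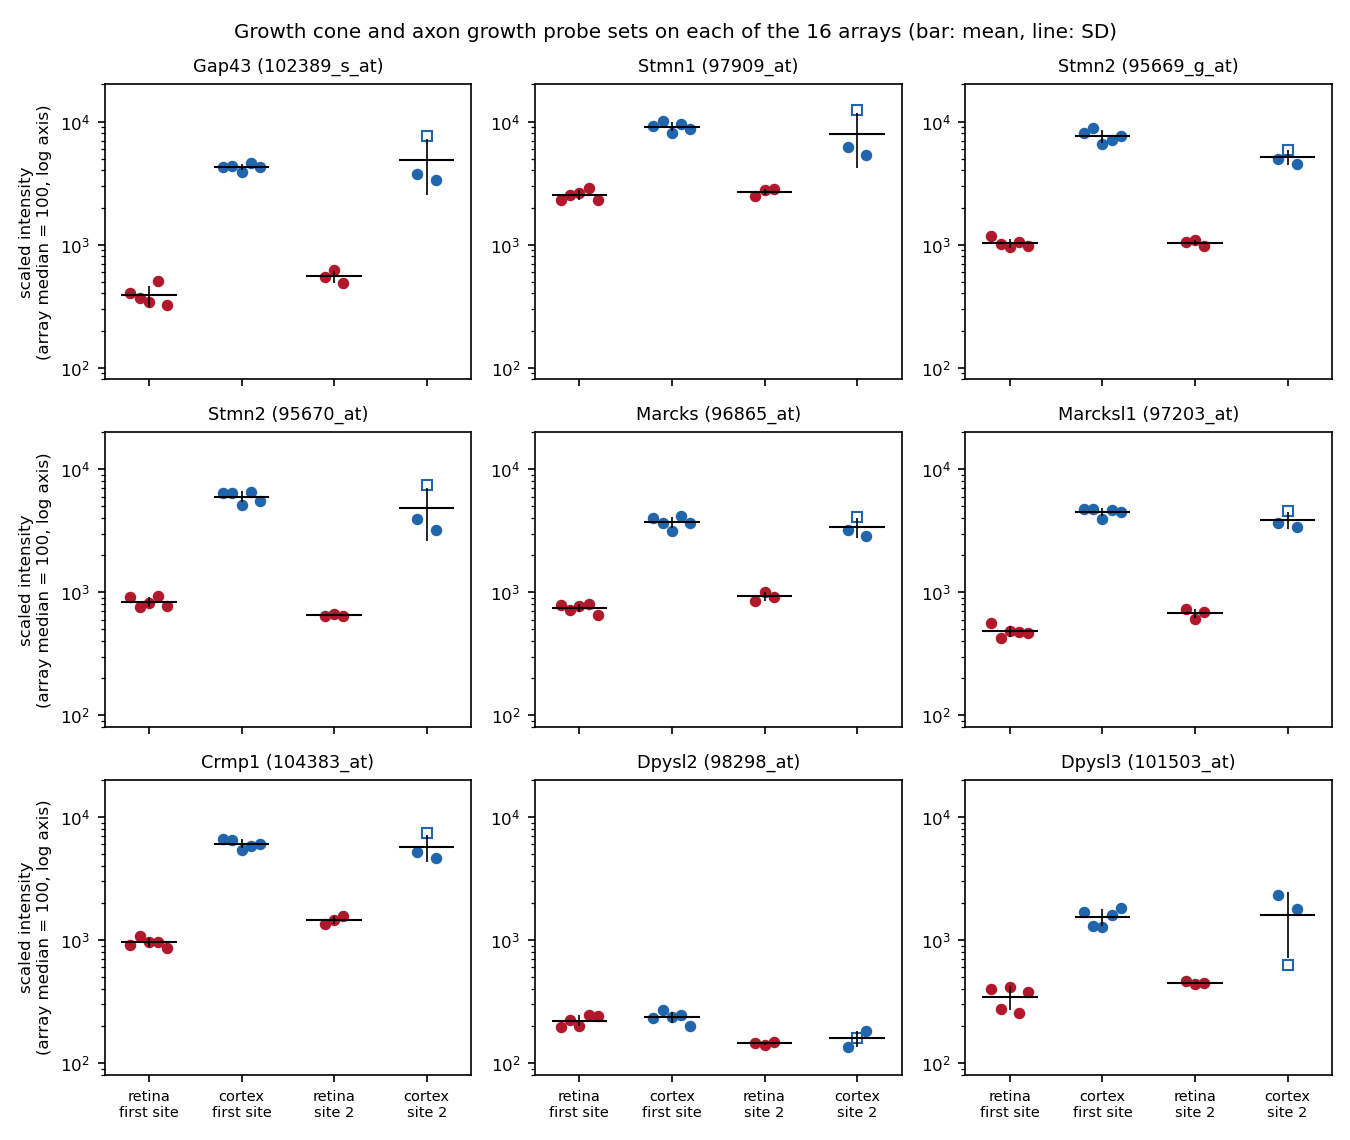
Scaled intensity (array median set to 100, log axis) of the 9 probe sets above the no-target level on each of the 16 arrays, by tissue and site; points are arrays, the horizontal bar is the group mean and the vertical line its SD, and the open square is replicate 2 of the site 2 cortex arrays. Retina arrays lie below cortex arrays at both sites in every panel but that of Dpysl2, where the groups overlap; heights in different panels are different probe sets and are not comparable.

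Gap43, the growth cone membrane protein used as a marker of axon growth, had the largest estimated difference among these genes. At the first site its scaled intensities were 403, 367, 338, 509 and 320 on retina arrays and 4269, 4310, 3908, 4561 and 4253 on cortex arrays. The highest retina array was thus well below the lowest cortex array. The retina mean of 387.5 ± 74.8 and the cortex mean of 4260.4 ± 233 (SD, 5 arrays each) put retina at 9.10% of cortex. The log2 difference was -3.42 ± 0.10 (SE), with a 95% interval from -3.64 to -3.20 and an adjusted p of 1.2e-13. At site 2 the values were 542, 619 and 491 in retina and 3762, 7575 and 3327 in cortex. The cortex value of 7575 came from the array that stood apart, and it was 2.14 times the mean of the other site 2 cortex arrays. The difference at site 2 was -2.99 ± 0.22 with an adjusted p of 4.8e-06, and -2.72 without that array.

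Marcksl1, a smaller relative of MARCKS that is also a protein kinase C substrate, came next in size at the first site. Retina arrays read 561, 427, 488, 478 and 466 and cortex arrays 4735, 4727, 3935, 4700 and 4485. The groups were far apart, and the retina mean of 484 ± 49.0 was 9.33-fold below the cortex mean of 4516 ± 341. The log2 difference was -3.18 ± 0.08 with an adjusted p of 2.4e-14. At site 2 the retina arrays read 725, 612 and 698 and the cortex arrays 3669, 4559 and 3370, again without overlap. That difference was -2.44 ± 0.14 with an adjusted p of 9.1e-07, and -2.42 without the array that stood apart.

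Marcks, which carries the same kind of membrane and calmodulin binding region, fell by less. First-site values were 782, 721, 771, 798 and 658 in retina and 4006, 3679, 3133, 4143 and 3682 in cortex. No retina array came near the cortex range, and the retina mean of 746 ± 57.1 was 20.0% of the cortex mean of 3729 ± 389.9. The log2 difference was -2.29 ± 0.09, with an adjusted p of 1.9e-12. Site 2 gave 852, 1003 and 921 in retina and 3236, 4060 and 2862 in cortex, a difference of -1.81 ± 0.14 with an adjusted p of 6.6e-06, and -1.77 without the array that stood apart. Retina was thus below cortex on every array at both sites.

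Stmn2 encodes a neuronal stathmin anchored to membranes in the growth cone, and 2 of its 3 probe sets were well measured. The probe set 95669_g_at read 1164, 1013, 948, 1046 and 977 on first-site retina arrays and 8005, 8867, 6567, 7119 and 7583 on those of cortex. The probe set 95670_at read 913, 761, 817, 937 and 770 in retina and 6369, 6423, 5136, 6483 and 5557 in cortex. Both separated the tissues by similar amounts there, with overlapping 95% intervals: the log2 differences were -2.86 ± 0.09 for 95669_g_at and -2.80 ± 0.09 for 95670_at, with adjusted p of 1.2e-13 and 2e-13. The probe set 95668_at, near the no-target level, had means of 23.6 ± 13.1 in retina and 37.5 ± 13.7 in cortex, and its difference of -0.51 missed the threshold (adjusted p = 0.093). It is annotated to the same sequence record as 95669_g_at.

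At site 2 the estimates of the measured Stmn2 probe sets lay further apart, again with overlapping 95% intervals. For 95669_g_at the arrays read 1050, 1080 and 978 in retina and 4998, 5883 and 4531 in cortex, a difference of -2.25 ± 0.14 with an adjusted p of 1.3e-06. For 95670_at they read 638, 666 and 646 in retina and 3908, 7405 and 3234 in cortex, a difference of -2.74 ± 0.21 with an adjusted p of 5.9e-06. The cortex array that stood apart was 1.23 times the mean of the other site 2 cortex arrays for 95669_g_at and 2.07 times for 95670_at. Without it the differences were -2.25 for 95669_g_at and -2.49 for 95670_at.

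Stmn1, the stathmin of dividing cells as well as of neurons, showed the smallest estimated difference among those that passed at the first site. Its probe set 97909_at read 2300, 2548, 2611, 2878 and 2300 in retina and 9122, 10142, 8073, 9474 and 8711 in cortex. The retina arrays were all well below the cortex arrays, with means of 2527 ± 242 in retina and 9104 ± 779.8 in cortex. The log2 difference was -1.83 ± 0.08, with an adjusted p of 1.6e-11. Site 2 gave 2489, 2752 and 2804 in retina and 6261, 12323 and 5349 in cortex, without overlap but with a wide cortex range. The difference there was -1.44 ± 0.22 with an adjusted p of 0.00064, and -1.17 without the cortex array that read 12323. Its call at site 2 was lost when the arrays were not centred, at -1.50 with an adjusted p of 0.091.

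The CRMP genes differed among themselves. Crmp1, a mediator of the semaphorin response, fell 6.36-fold in retina at the first site. Its arrays read 904, 1070, 972, 972 and 860 in retina and 6599, 6527, 5393, 5800 and 6078 in cortex, 2 ranges far apart. The log2 difference was -2.64 ± 0.08, with an adjusted p of 8.8e-14. At site 2 the retina arrays read 1362, 1469 and 1563 and the cortex arrays 5229, 7386 and 4626, a difference of -1.90 ± 0.15 with an adjusted p of 7.9e-06. Leaving out the cortex array that stood apart gave -1.81.

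Dpysl3 also fell in retina, but its arrays scattered more. At the first site they read 403, 277, 414, 254 and 379 in retina and 1678, 1310, 1275, 1607 and 1826 in cortex, without overlap. The retina mean was 22.4% of the cortex mean, and the log2 difference was -2.11 ± 0.14 with an adjusted p of 2.4e-09. Site 2 gave 461, 443 and 447 in retina and 2347, 624 and 1804 in cortex. The cortex reading of 624 came from the array that stood apart, where Dpysl3 was 0.301 times the mean of the other site 2 cortex arrays. That is opposite in direction to Gap43, Stmn1 and Stmn2 on the same array. The site 2 difference was -1.57 ± 0.44 with an adjusted p of 0.019, and -2.22 ± 0.11 without the array (adjusted p = 1e-07). With that array kept, the call was lost under 6 of the 15 alternative settings tried, at adjusted p from 0.051 to 0.1, among them leaving out replicate 1 or 3 of either tissue at site 2.

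Dpysl2 encodes the CRMP best known for carrying tubulin dimers to growing microtubules, and its tissues overlapped. At the first site its arrays read 195, 222, 202, 244 and 243 in retina and 233, 268, 239, 244 and 200 in cortex. Site 2 gave 146, 141 and 148 in retina and 135, 160 and 183 in cortex. The log2 differences missed the threshold at both sites. The first site gave -0.09 (95% interval -0.28 to 0.11, adjusted p = 0.48) and the other site -0.10 (95% interval -0.47 to 0.27, adjusted p = 0.77). Without the array that stood apart, site 2 gave -0.13 (adjusted p = 0.5). Neither of those intervals overlapped that of any other measured member at the same site.

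At site 2 as at the first site, 8 of the 11 probe sets were lower in retina and none was higher, against 32.5% called over all probe sets, 15.9% lower and 16.7% higher. Retina again read below cortex on every array for 8 probe sets, against 22.2% of all probe sets, and all 8 were at least 2-fold lower, against 8.6%. The falls were between 2.97-fold and 8.88-fold. Without the cortex array that stood apart, 8 member probe sets were again lower and none higher, against 21.3% lower and 26.6% higher of all probe sets. Over the whole array 14.1% of probe sets were lower in retina at both sites, and the 8 member probe sets were among them. In the order of the differences at the first site, from Gap43 through Marcksl1, Stmn2, Crmp1, Marcks, Dpysl3 and Stmn1 to Dpysl2, most neighbours had overlapping 95% intervals. The exceptions were Crmp1 (-2.81 to -2.48) against Marcks (-2.47 to -2.10), and Stmn1 (-2.01 to -1.66) against Dpysl2. At site 2 Stmn1 against Dpysl2 was the sole pair of neighbours without overlap.

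**Figure D2:**
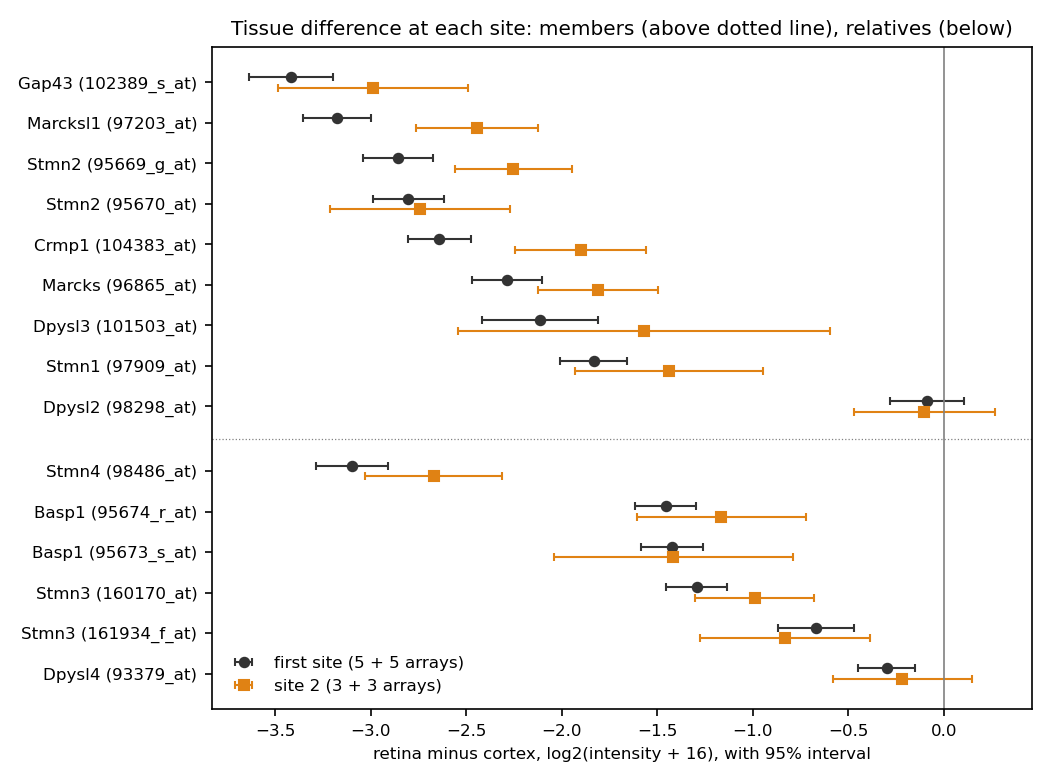
Difference between retina and cortex in log2(intensity + 16), with 95% intervals, at the first site (circles, 5 and 5 arrays) and at site 2 (squares, 3 and 3 arrays); values left of 0 are lower in retina. The members stand above the dotted line, from Gap43 at -3.42 to Dpysl2 at -0.09 at the first site, and their relatives below it.

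The array lists further genes of the same protein families, and they are given here for comparison. Stmn4, a neuronal stathmin, averaged 276 ± 28.1 on retina arrays and 2496 ± 310.2 on cortex arrays of the first site, a log2 difference of -3.10 that lies within the range of the members. Basp1, a membrane protein with a role like that of GAP-43, had differences of -1.42 and -1.46 for its 2 probe sets. Stmn3, another neuronal stathmin, had -1.29 and -0.67 for its own pair. Dpysl4, a CRMP gene, fell by 0.30 at the first site (adjusted p = 0.0019), and its value of -0.22 at site 2 missed the threshold (adjusted p = 0.39). Thus 4 of 4 measured relatives were lower in retina on the first site's arrays and 3 of 4 on those of site 2, with or without the array that stood apart.

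The size of the tissue difference depended on the site for some genes. The interaction, which is the difference at site 2 minus that at the first site in a fit of all 16 arrays, passed for 3 of the 11 probe sets, against 3.36% of all probe sets. For all 3 it was positive, meaning a smaller gap between the tissues at site 2. Over all probe sets 2.07% were called in that direction and 1.3% in the other. Crmp1 had an interaction of 0.74 ± 0.15 (adjusted p = 0.0071), with retina 3.92-fold below cortex at site 2 and 6.36-fold at the first site. Marcksl1 had 0.73 ± 0.15 (adjusted p = 0.0074), with falls of 5.70-fold at site 2 and 9.33-fold at the first site. Stmn2 passed with the probe set 95669_g_at, at 0.60 ± 0.15 (adjusted p = 0.026), but not with 95670_at, at 0.06 (95% interval -0.37 to 0.49, adjusted p = 0.95). The call for 95669_g_at was lost under 10 of 24 alternatives, among them leaving out replicate 3 of the first-site retina, replicate 1 of the first-site cortex, or replicate 1 or 2 of the site 2 retina arrays (adjusted p from 0.053 to 0.088).

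The remaining interactions did not pass: Marcks had 0.48 (adjusted p = 0.088), Dpysl3 0.54 (0.6), Gap43 0.43 (0.36), Stmn1 0.40 (0.34) and Dpysl2 -0.02 (0.99). Without the cortex array that stood apart, 6 member probe sets passed, against 5.4% of all probe sets (3.66% positive, 1.74% negative), adding Gap43 at 0.70 (adjusted p = 0.026), Stmn1 at 0.66 (0.0079) and Marcks at 0.52 (0.045). Dpysl3 then had -0.11 (adjusted p = 0.83). Array scaling bears on these calls: after quantile normalization 1 probe set passed, that of Crmp1, and without centring none did. Over all probe sets, 257 interactions were positive and 161 negative among those called, against 215 and 230 after quantile normalization and 13 and 21 without centring.

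Within a tissue, some member probe sets differed between the sites. In the main analysis their shares were not far from those over all probe sets, so the counts do not set these genes apart. In retina, 5 of the 11 probe sets differed between site 2 and the first site, 4 higher and 1 lower, against 35.7% of all probe sets (23.2% higher, 12.5% lower). Crmp1 was 1.53-fold higher at site 2, at a log2 difference of 0.60 (adjusted p = 0.00018), and Marcksl1 1.40-fold higher, at 0.47 (0.0015). Gap43 was 1.42-fold higher, at 0.50 (adjusted p = 0.022), and Marcks 1.24-fold higher, at 0.30 (0.034). Dpysl2 was 1.52-fold lower at site 2, at -0.56 (adjusted p = 0.0011). The split of the members' calls turned with scaling: after quantile normalization 1 was higher and 2 were lower, and without centring none was called. Marcksl1 then missed the threshold, at 0.24 (adjusted p = 0.08) after quantile normalization and 0.41 (0.53) without centring. For Gap43 the site 2 reading of 491 lay below the first-site reading of 509, so the sites overlapped. Gap43 and Marcks lost their call under more settings, in 6 of 24 alternatives for Gap43 and 10 of 24 for Marcks. Among these, Gap43 lost it without replicate 5 of the first-site retina arrays (0.43, adjusted p = 0.058) or replicate 1 or 2 of those of site 2. Marcks lost it without first-site retina replicate 2 or 5, or site 2 retina replicate 2 or 3 (adjusted p from 0.065 to 0.16).

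In cortex 2 of the 11 probe sets differed between site 2 and the first site, both lower, against 16.7% of all probe sets (6.4% lower, 10.3% higher). Stmn2 was lower at site 2 with 95669_g_at, at -0.60 (adjusted p = 0.00071), and 95670_at had -0.42 (adjusted p = 0.053). Dpysl2 was lower by 0.54 (adjusted p = 0.0041), close to its difference in retina. The other genes did not pass there. Without the cortex array that stood apart, 7 of the 11 probe sets passed, 6 lower and 1 higher. Of the 9 measured ones 6 passed, 5 lower and 1 higher. Over all probe sets 40.1% then passed, 22.5% lower and 17.5% higher, so the split turned there too. The member that was then higher was Dpysl3, at 0.50 (adjusted p = 0.033), and Stmn1 was lower at -0.58 (adjusted p = 0.00057). The split of calls over all probe sets moved with scaling: in retina 65% of calls were higher at site 2, against 53.2% after quantile normalization and 39% without centring. In cortex 61.7% were higher, against 49.2% after quantile normalization and 65.8% without centring.

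**Figure D3:**
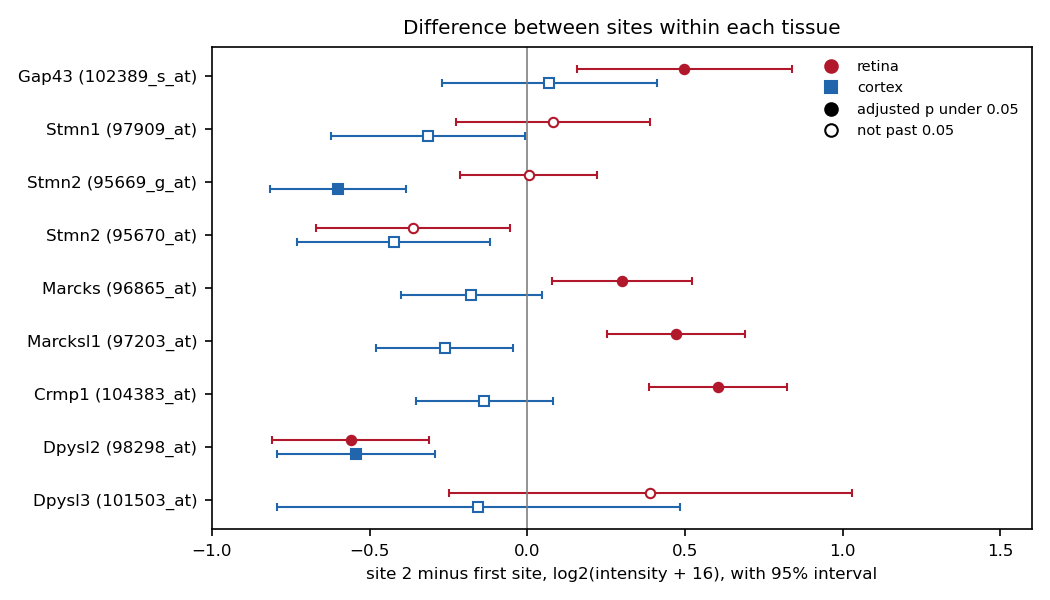
Site 2 minus first site in log2(intensity + 16), with 95% intervals, for the 9 measured probe sets in retina (red circles) and cortex (blue squares); filled symbols have an adjusted p under 0.05. In retina Crmp1, Marcksl1, Gap43 and Marcks are called higher at site 2, and Dpysl2 is called lower in both tissues, at -0.56 in retina and -0.54 in cortex.

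Arrays of a group repeated the members about as closely as other probe sets at the first site. The median coefficient of variation of the 9 probe sets was 9.66% on the retina and 10.2% on the cortex arrays of the first site, beside 10.6% and 10.7% for the 7358 probe sets above the no-target level on all arrays. At site 2 it was 6.28% in retina, beside 9.71%, and 25.2% in cortex, beside 18.5%. Dpysl3 was the most variable member in 3 of the 4 groups, with 21.6% and 15.5% in retina and cortex of the first site and 55.3% in cortex of site 2. In retina of site 2 it was the least variable, at 2.13%. Without replicate 2 of the site 2 cortex arrays, the median there was 8.68% for the members and 6.70% for the wider set, and Dpysl2 was the most variable member, at 21.5%. In scaled intensity that replicate was the highest of its 3 arrays for 7 of the 9 probe sets and the lowest for 1. In the deposited intensities, before scaling, it was the lowest of the 3 for each of the 9. The part of its RNA control ratios in these readings was not tested.

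RefSeq's promoter table for the assembly GRCm38.p6 held 2 of the 8 genes, Marcksl1 and Crmp1. Their 250 bases before the gene start are shown for that reason, and whether promoter composition bears on expression was not tested. The Marcksl1 window is chr4:129513331-129513580 and the Crmp1 window chr5:37241808-37242057, both on the plus strand, and capitals mark GC boxes (GGGCGG or CCGCCC).
Marcksl1: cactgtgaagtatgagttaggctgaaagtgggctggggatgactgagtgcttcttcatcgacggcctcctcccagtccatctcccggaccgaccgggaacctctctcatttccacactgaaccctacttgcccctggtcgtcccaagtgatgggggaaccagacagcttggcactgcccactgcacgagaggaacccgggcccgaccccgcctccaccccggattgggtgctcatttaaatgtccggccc
Crmp1: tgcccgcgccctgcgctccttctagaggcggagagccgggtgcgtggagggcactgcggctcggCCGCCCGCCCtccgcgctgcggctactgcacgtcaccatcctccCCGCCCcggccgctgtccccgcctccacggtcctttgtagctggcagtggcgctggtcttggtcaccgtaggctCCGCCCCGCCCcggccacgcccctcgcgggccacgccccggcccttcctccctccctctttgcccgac
The Crmp1 window held 5 GC boxes, overlapping ones counted separately, and the Marcksl1 window 0. GC content was 75.6% for Crmp1 and 60.4% for Marcksl1, beside a median of 52.4% over all 32851 windows of this length. A CCAAT box (CCAAT or ATTGG) and an E-box (CANNTG) stood once each in the Marcksl1 window and in neither case in that of Crmp1. A TATA box (TATAAA or TTTATA) and a cAMP response element (TGACGTCA) were in neither. Both strands were searched. The shares of all windows with a match were 32.7% for the GC box, 33.8% for the CCAAT box, 66.2% for the E-box, 12.4% for the TATA box and 1.55% for the cAMP response element.

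Genes that act with these proteins, and cell type markers further below, were grouped in lists. The shares over all probe sets stand beside their counts: 25.2% were lower in retina and 21.9% higher at the first site. At site 2, 15.9% were lower and 16.7% higher, or 21.3% and 26.6% without the cortex array that stood apart. Of the growth cone membrane and actin proteins, 13 of 15 measured genes were lower in retina at the first site and 1 was higher, with a median log2 difference of -1.12. At site 2, 12 were lower and 1 higher, with a median of -0.86, and 14 were lower and 1 higher without the cortex array that stood apart. Dbn1, the dendritic and growth cone actin binder drebrin, had -3.66 ± 0.16, although in retina it was above the no-target level on 4 of 5 arrays. Tmsb4x, an actin monomer binding thymosin, had -2.34 ± 0.08, and Fez1, an adaptor in axonal transport, -1.53 ± 0.07. The other probe set of Fez1 had -0.61. Ablim1, an actin binding LIM protein, was higher in retina by 0.32 ± 0.08 (adjusted p = 0.0036).

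Among genes of CRMP and semaphorin signalling, 13 of 21 measured were lower in retina and 2 higher at the first site, with a median of -0.75, and 8 were lower and 3 higher at site 2, with a median of -0.43. Without the array that stood apart, 12 were lower and 3 higher at site 2. L1cam, an axonal adhesion molecule, had -2.78 ± 0.12 at the first site and missed the threshold at site 2 with -1.03 (adjusted p = 0.084). Its interaction was 1.75 (adjusted p = 0.017). Nrp1, a semaphorin receptor subunit, had -2.53 ± 0.08 at the first site and a larger gap of -3.54 at site 2, with an interaction of -1.003 (adjusted p = 0.03). Its other probe set had -2.33 at the first site and -2.52 at site 2. Fyn, a kinase that phosphorylates CRMPs, had -2.52 ± 0.09 at the first site. Sema3f, a secreted semaphorin, was higher in retina by 1.40 ± 0.12.

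The kinases and phosphatases of stathmin had 6 of 9 measured genes lower and none higher in retina at the first site, with a median of -0.67, and 5 lower at site 2, with a median of -0.40. Without the array that stood apart, 6 were lower at site 2, with a median of -0.69. Mapk8, a JNK kinase, had -1.39 ± 0.07, and its second probe set -1.12. Map2k4, which activates JNK, had -0.86 at the first site and missed the threshold at site 2 (adjusted p = 0.45). Mapk10, the neuronal JNK, had -0.81 with the probe set that stands for it and 0.05 with the other. Prkaca, a catalytic subunit of protein kinase A, had 0.10 (adjusted p = 0.3).

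Genes of protein kinase C, calmodulin and calcineurin, which act on GAP-43 and MARCKS, were mixed. Of 12 measured, 6 were lower and 2 higher in retina at the first site, with a median of -0.43, and 5 were lower and 1 higher at site 2, with a median of -0.44. Without the array that stood apart, 7 were lower and 2 higher at site 2. The first-site genes called higher include Pcp4, a calmodulin binding protein, which was above the no-target level on 1 of 5 retina arrays and on no cortex array. Nrgn, a calmodulin binding relative of GAP-43, had -4.41 ± 0.16, and in retina it was above the no-target level on 1 of 5 first-site arrays. Ppp3cb, a catalytic subunit of calcineurin, had -1.01 ± 0.08 at the first site and an adjusted p of 0.27 at site 2. Prkca, a protein kinase C, was higher in retina by 1.72 ± 0.09.

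Genes known to rise in injured neurons that regrow axons showed no common direction, and their first-site counts were near the shares over all probe sets. Of 14 measured, 4 were lower and 4 higher in retina at the first site, with a median of -0.12, and 3 were lower and 5 higher at site 2, with a median of -0.03. Without the array that stood apart, 3 were lower and 6 higher at site 2, and the median was 0.40. Sox11, a transcription factor also found in immature neurons, had -5.30 ± 0.10. Gadd45a, a stress response gene, was higher in retina by 3.14 ± 0.11, and Cebpd, a transcription factor, by 1.92 ± 0.11. Atf3, also counted as higher, had 1.68 with the probe set that stands for it and -0.32 and -0.10 with its others.

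**Figure D4:**
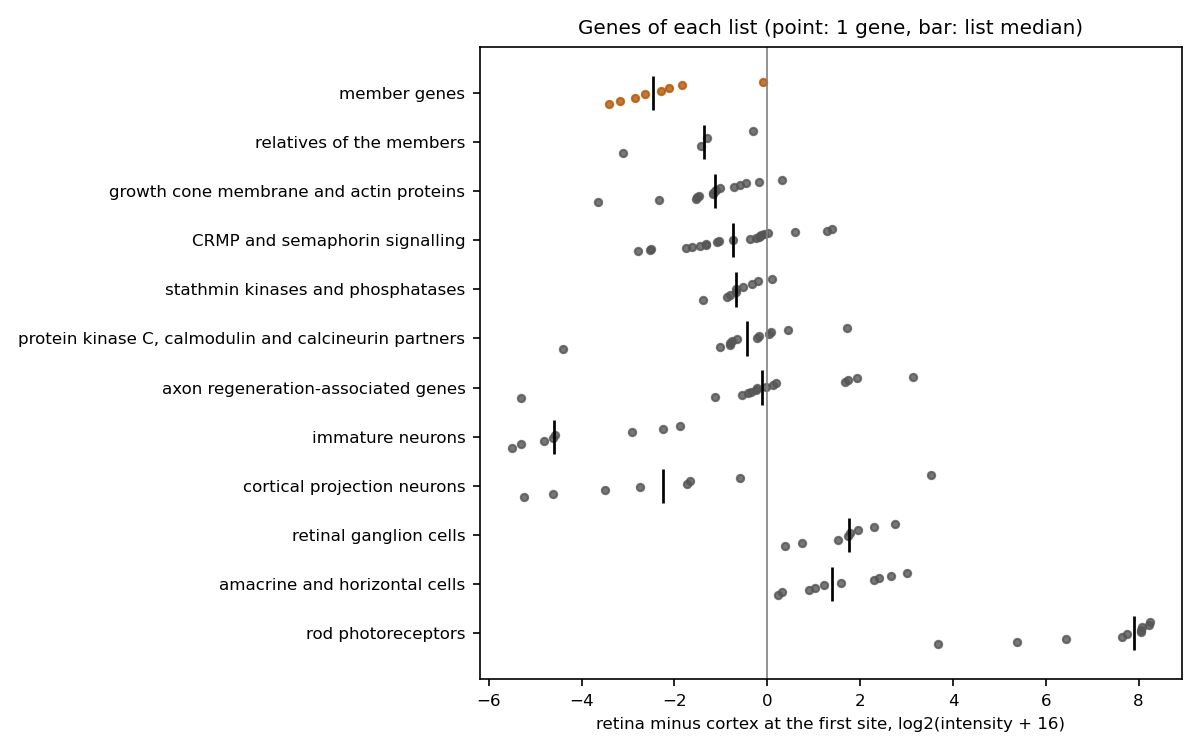
Difference between retina and cortex at the first site in log2(intensity + 16), 1 point per gene, for the members, their relatives, lists of genes that act with them and lists of cell type markers; the bar is the list median. The members' median is -2.46, nearest to that of the cortical projection neuron markers (-2.24). The growth cone membrane and actin list has -1.12 and the immature neuron markers have -4.59.

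Markers of immature neurons, cortical projection neurons and dividing progenitors were lower in retina, as most members were. Those of immature neurons were lower in retina for 8 of 8 genes at both sites, also without the array that stood apart, with a median of -4.59 at the first site. Their summed scaled level was 3332 to 3732 on retina arrays and 33600 to 40896 on cortex arrays at the first site, and 3766 to 4101 on retina and 26015 to 48784 on cortex arrays at site 2. Markers of cortical projection neurons were lower in retina for 7 of 8 genes at the first site, the exception being Neurod1 at 3.52. Their summed levels were 3695 to 3981 in retina and 8664 to 10099 in cortex. Neurod1 had the largest retina mean in these sums, 1997, against 163 in cortex. Neurod6, which marks cortical projection neurons, was at the no-target level on all 8 retina arrays. Markers of dividing progenitors were lower for 6 of the 8 genes above the no-target level in either tissue, and the call for Mcm6, at that level on all arrays, is not counted. Mki67 was not called with the probe set that stands for it (-0.375, adjusted p = 0.067). Its other probe set had -2.53 at the first site. The sums of all 9 genes were 1090 to 1199 in retina and 1903 to 2244 in cortex. Pcna, which was not called (0.22, adjusted p = 0.21), had the largest mean in these sums, 802 in retina and 705 in cortex. The sums therefore understate the difference of the genes that were called. Top2a and Ccnd2 were at the no-target level on all retina arrays.

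Markers of retinal ganglion cells moved the other way. All 8 measured were higher in retina at the first site, and 7 were at the other site, with medians of 1.75 and 2.00. Without the array that stood apart, 7 were again higher at site 2, with a median of 1.86. Their sums were 4222 to 4728 on retina arrays and 1141 to 1397 on cortex arrays of the first site. At site 2 they were 5408 to 6491 in retina and 1605 to 1634 in cortex, and no marker was at the no-target level in either tissue. The 10 measured markers of rods, the commonest retinal neurons, were all higher in retina, with sums of 51414 to 59127 in retina and 149 to 193 in cortex. Of these, 6 were at the no-target level on all first-site cortex arrays. At the first site, markers of amacrine and horizontal cells were higher in retina for 8 of 10 genes and those of Mueller glia for 5 of 6. At site 2 these counts were 8 and 4, with or without the array that stood apart. Aqp4, a Mueller glia marker, had 1.63 at the first site and -0.19 at site 2 (adjusted p = 0.48). Astrocyte markers were lower for 1 and higher for 2 of 4 at the first site. At site 2 they were lower for 0 and higher for 1, or higher for 2 without the array that stood apart. Of the genes above the no-target level at the first site, 1 of 3 of the oligodendrocyte lineage and 3 of 5 of microglia were lower. The former was Pdgfra at -1.75, whose other probe sets had -0.06 and -0.09. At site 2 no microglia marker passed, and 1 was lower without the array that stood apart. At the first site other probe sets of Csf1r and C1qb had 0.49 and 0.05, against -0.34 and -0.35 for those counted. Erythrocyte markers were lower in retina for 3 of 3 genes, with sums of 732 to 860 in retina and 3241 to 3661 in cortex. The part of cell makeup in the members' differences was not tested.

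Across the 16 arrays the log2 levels of Gap43, Marcks, Marcksl1, Stmn1, Stmn2 and Crmp1 ran closely together, with Pearson's r from 0.972 to 0.995 between pairs. These values describe points that share arrays and fall into 2 tissues. Dpysl3 had r from 0.804 to 0.907 with those genes, and Dpysl2 from 0.057 to 0.245 with all others. Outside the members, the gene most like Gap43 was Wdr13 (r = 0.996), and that most like Stmn1 was Tubb2a, a beta tubulin (0.995). Marcks was closest to Fabp7, a fatty acid binding protein of radial glia (0.995), and Crmp1 to Nnat, a marker of immature neurons (0.996). Stmn2 was closest to Hmgb3 (0.998), Marcksl1 to Jpt1 (0.996), Dpysl3 to Sh3bp5 (0.971) and Dpysl2 to Psapl1 (0.947). Such likeness was common for the genes with a large tissue difference: of 8243 genes, 714 had an r over 0.9 with Gap43, against 28 with Dpysl2.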

How the data were processed

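Total RNA of retina and cortex was measured on 16 1-colour arrays, about 10 µg of RNA each, per the labels' protocols. The authors deposited 1 linear intensity for each probe set of an array, a summary over its probes. How they summarised, corrected and scaled it is not given in the sources used here. No genome build is named for them. The table held 12488 probe sets, and without 66 control probe sets 12422 were tested. Of these, 10833 had 1 gene symbol in the platform annotation, 396 had several and 1193 are unnamed here. Symbols were updated through RefSeq's gene table.

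The analysis used log2(intensity + 16) less the median of that array. Differences on this scale understate changes of dim probe sets. Tissues were compared within each site, and sites and their interaction with tissue in a fit of all 16 arrays, by lmFit and trended eBayes of limma 3.58.1 (R 4.3.3). Tests were two-sided, p-values were adjusted by Benjamini-Hochberg over all 12422 probe sets, and the threshold was 0.05. The script was tested on simulated data. The no-target level of an array is the highest of 13 control probe sets for bacterial and yeast sequences, and 68.5% to 78.8% of probe sets lay above it. The number of arrays limits the precision. Where a gene had several probe sets, the brightest over all arrays stood for it.

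Members and lists were chosen with earlier results of these data known. All member probe sets and relatives are named, with the 3 genes of each further pathway list that differed most at the first site, the one that went most against the list, and the gene most like each member. Alternatives covered the pseudocount (1 or 50), scaling, a filter on dim probe sets, the variance trend, a replicate block and leaving out each array. The study's dual-dye platforms were not analysed here.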

Additional observations from a re-analysis of the deposited data

Results flagged for a closer look

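In the main analysis, the interaction test called a tissue difference that depended on the site for 3 of the 11 probe sets. The share over all probe sets was 3.36%. After quantile normalization 1 of the 3 passed, and without centring none did. The other measured Stmn2 probe set, 95670_at, had 0.06 (adjusted p = 0.95). Crmp1 had 0.74, Marcksl1 0.73 and the Stmn2 probe set 95669_g_at 0.60 on the log2 scale, site 2 minus first site, each with a smaller gap between retina and cortex at site 2. Among the 18 sets of 5 arrays examined, 1 held an array far from the others: Marcksl1 read 3935 on replicate 3 of the first-site cortex arrays, against 4485 to 4735 on the other 4. The gap to its nearest neighbour was 0.775 of the whole range on the log2 scale, above the limit of 0.71 for 5 arrays. For independent sets chance alone gives about 1 such array in 20, but these sets share their arrays. The same replicate was also the lowest of its group for Gap43, Stmn1, Marcks, Crmp1, Dpysl3 and both measured Stmn2 probe sets. For Dpysl2 it was not, at 239 against a lowest reading of 200. A shift shared across that array was not tested.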

How the results depend on the processing

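Samples with the same replicate number did not deviate together (correlations from -0.187 to 0.0802, and the own number was best for 3 of 8), so the numbers were not taken as pairs. The replicate block gave 8 calls at each site, 3 interactions, and 4 retina and 2 cortex site differences, and ended 1 call, that of Marcks in retina (0.31, adjusted p = 0.053). The tissue difference kept 8 calls at the first site under every alternative run. At site 2 it kept 6 to 8: 6 without centring, 7 without the intensity trend, and 7 to 8 when 1 array was left out. Interactions called, 3 in the main analysis, were 0 without centring, 1 after quantile normalization and 2 to 6 when leaving out 1 array. Without centring the median interaction of all probe sets was -0.10, against 0.04, and 34 of 12422 probe sets passed, against 418. Site differences in retina, 5 in the main analysis, were 3 when arrays were scaled to a median of 100 first, 0 without centring, 3 after quantile normalization and 3 to 7 when leaving out 1 array. Those in cortex, 2 in the main analysis, were 4 with a pseudocount of 50, 0 without centring and 2 to 6 when leaving out 1 array. These member counts are of the 9 measured probe sets. Without centring, all-probe-set counts were 781 against 4043 for the tissues at site 2, 290 against 4437 for the sites in retina and 79 against 2076 in cortex. The lower counts after leaving out an array come with fewer arrays; the cause of the other changes was not tested.

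Across the alternatives, 24 combinations of a single-probe-set result and a setting changed sign, 9 of them for the retina site difference of Stmn2 95669_g_at. None of the results concerned had passed the threshold in the main analysis. After quantile normalization the interaction of Stmn1 was -0.016, that of Stmn2 95670_at -0.202 (-0.078 without centring), the retina site difference of Stmn1 -0.083 and that of Stmn2 95669_g_at -0.238. The last was also -0.005 with a pseudocount of 50, -0.056 without centring and -0.020 with the replicate block. When 1 array was left out, it ran from -0.022 to 0.06, the Dpysl2 tissue difference at site 2 from -0.198 to 0.019 and the Dpysl2 interaction from -0.111 to 0.107. The interaction of Stmn2 95670_at ran from -0.121 to 0.313 and that of Dpysl3 from -0.106 to 0.951. The cortex site difference ran from -0.197 to 0.234 for Gap43 and from -0.562 to 0.496 for Dpysl3, and the negative Gap43 value and positive Dpysl3 value both came without replicate 2 of the site 2 cortex arrays.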
